A study of Mus musculus with 6 samples.

Results

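The epithelial sodium channel and the genes through which aldosterone acts on it were followed as 7 genes, Scnn1a, Scnn1b, Scnn1g, Hsd11b2, Nr3c2, Sgk1 and Nedd4l. They were chosen by name, as all array probes whose gene name is one of these symbols (Sgk1 is listed under its older name Sgk). That gave 12 probes of the 41174 on the array, and all 7 genes were among the 19598 genes tested, which had a probe above background in every ligated or every contralateral kidney. The samples were the left kidneys of 3 CD-1 mice, numbered 495, 485 and 512, whose left ureter had been completely tied (ligated), and the untied right (contralateral) kidneys of the same 3 mice, which the study treats as its internal control. CD-1 mice are outbred and thus differ genetically from one another, and no other allele, drug or treatment is named for either group. Age, sex and the time between ligation and sampling are not given in the sources used here, and no kidney of an unoperated mouse is among the samples. The labels call the material both kidney and primary cells. The tested markers of collecting duct, distal tubule, thick ascending limb, macrophages, endothelium and fibroblasts were above background on all 6 arrays, except Elf5, which was above it on 5. Pvalb, listed for the distal convoluted tubule, was too dim to test with all 3 mice.

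The epithelial sodium channel is built from an alpha, a beta and a gamma subunit and is the step at which sodium enters the principal cells of the late distal tubule and collecting duct. Aldosterone binds the mineralocorticoid receptor, encoded by Nr3c2, and the enzyme encoded by Hsd11b2 inactivates glucocorticoids in these cells, so that the receptor is left to aldosterone. Among the genes that the hormone induces is Sgk1, a kinase that phosphorylates the ubiquitin ligase Nedd4l. Unphosphorylated Nedd4l marks the channel for removal from the cell surface, and the phosphorylated ligase does so less. Scnn1a transcription itself is also raised by aldosterone in the kidney.

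The probes were strands of 60 bases, and 4 of the 7 genes were read by more than 1. The sequences of 5 probes are shown because they decide how the values can be read: the 3 probes of Nr3c2 gave different answers within 1197 bases of each other, and the Scnn1a and Hsd11b2 probes shown cross an intron, so that they match spliced RNA. They are written as deposited, 5′ to 3′, with no base in capitals, and positions are those the files give for mouse build mm8.
Nr3c2 A_51_P377914 (chr8:79804562-79804621): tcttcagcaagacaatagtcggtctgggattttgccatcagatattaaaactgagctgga
Nr3c2 A_52_P378137 (chr8:79805101-79805160): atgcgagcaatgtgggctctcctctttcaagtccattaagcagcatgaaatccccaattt
Nr3c2 A_52_P264543 (chr8:79805699-79805758): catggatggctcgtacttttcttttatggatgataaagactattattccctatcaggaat
Scnn1a A_52_P139395 (chr6:125308673-125308877): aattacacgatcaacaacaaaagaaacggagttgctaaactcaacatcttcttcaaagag
Hsd11b2 A_51_P410205 (chr8:108412014-108412231): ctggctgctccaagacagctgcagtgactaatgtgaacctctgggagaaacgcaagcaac
The genome span of the Scnn1a probe was 205 bases and that of the Hsd11b2 probe 218 bases, each longer than the probe. All 3 Nr3c2 probes had 2 forward reading frames without a stop codon.

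Scnn1b and Scnn1g lie on the same strand of chromosome 7, and their start sites in the RefSeq annotation of build GRCm38.p6 are 130559 bases apart. The bases before both start sites are shown because these 2 subunit genes passed the test together, as described below. Each is written 5′ to 3′ on the plus strand, with GC boxes (GGGCGG or its reverse complement CCGCCC) in capitals, and the Scnn1g stretch stops where the gene's annotated span begins.
Scnn1b (chr7:121864788-121865037): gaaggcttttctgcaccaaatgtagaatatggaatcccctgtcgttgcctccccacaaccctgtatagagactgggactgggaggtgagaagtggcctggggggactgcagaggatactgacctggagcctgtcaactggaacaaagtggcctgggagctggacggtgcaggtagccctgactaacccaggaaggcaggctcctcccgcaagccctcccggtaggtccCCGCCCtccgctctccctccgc
Scnn1g (chr7:121734229-121734419): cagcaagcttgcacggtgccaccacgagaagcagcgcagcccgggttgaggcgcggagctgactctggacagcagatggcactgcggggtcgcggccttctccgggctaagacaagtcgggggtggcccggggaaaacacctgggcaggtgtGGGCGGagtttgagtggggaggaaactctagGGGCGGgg
The Scnn1b stretch had 1 GC box, 22 bases before the start, and that of Scnn1g had 2, at 98 and 67 bases before it. Of 32851 RefSeq windows of 250 bases before a start site, 32.7% held a GC box. Neither gene's window held the 6-base corticosteroid receptor half-site AGAACA or its reverse complement TGTTCT, which 16.1% of the windows held on 1 strand or the other. The full palindrome, 2 such half-sites facing each other with 3 bases between them, occurred in 3 of all the windows. Windows were at hand for 4 of the 7 genes. Sgk1 had 6 listed start sites, of which 3 had a half-site within their window, and Nr3c2 had no half-site and 3 GC boxes.

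Values below are log2 of the background-corrected signal minus the 75th percentile of the same array, so that 0 is the level that 3 in 4 spots lie under. A difference is ligated minus contralateral, and a gene is called where limma's paired test gave a Benjamini-Hochberg adjusted p under 0.05 over all 19598 genes. Errors of differences are limma's standard errors, in which the spread of a gene over the 3 mice is moderated by that of all genes. The arrays of mice 495 and 485 shared a slide, and both arrays of mouse 512 were on a second slide. Between 72.1 and 74.7% of spots were above background on ligated arrays and between 65.7 and 69.5% on contralateral arrays, and the 75th percentile signal was 1068 to 1432 on ligated arrays and 671 to 1106 on contralateral arrays. The contralateral kidney of mouse 512 stood apart: its summed level of 7 macrophage markers, as multiples of the array's 75th percentile signal, was 88.1, where the other contralateral kidneys had 18.2 and 17.2. Its summed level of 6 distal convoluted and connecting tubule markers was 15.3, where the others had 121 and 89.7. Such sums are of unlogged levels, so the brightest genes weigh most. Cd14 and Lyz2 made up most of the 88.1. Of the macrophage markers only Csf1r was lower in that kidney (0.91 against 1.17 and 1.33), and the rest were higher. Of the distal markers only Trpv5 was higher there (-0.20 against -1.57 and -2.00).

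Of the 7 genes, 3 were called and all 3 fell in the ligated kidneys: Hsd11b2, Scnn1g and Scnn1b. Over all genes 30.7% were called, 14.7% lower and 16% higher. The median difference of the 7 genes was -0.84, against -0.01 for all genes tested. In 5 of the 7 genes every ligated kidney was below every contralateral kidney, a pattern found in 28.8% of all genes. In 6 of the 7 the ligated kidney was the lower in all 3 mice, as in 37.9% of all genes. In RNA pooled from many cells, fewer cells of a type and less RNA per cell cannot be told apart.

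**Figure D1:**
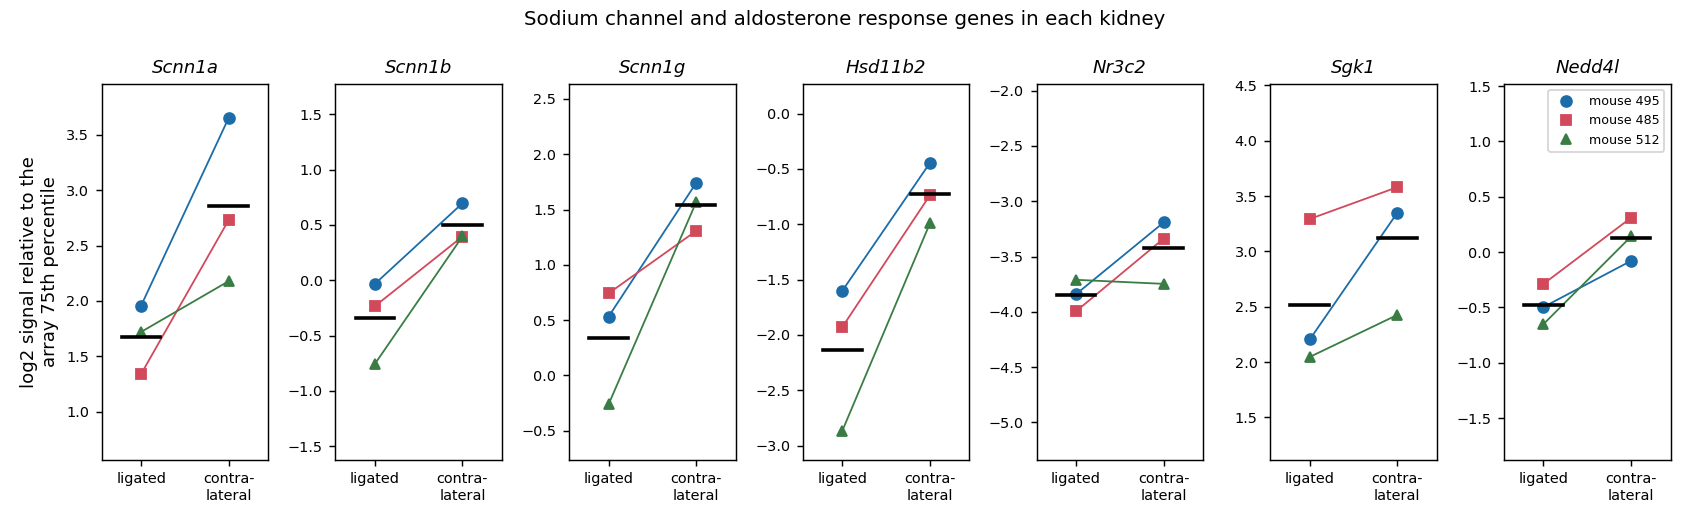
Level of each gene in each kidney, as log2 signal relative to the array's 75th percentile, with 1 panel per gene whose axis has the same length but its own origin. Points are kidneys, lines join the 2 kidneys of a mouse and bars are means of 3; all lines slope upward from the ligated to the contralateral kidney except that of mouse 512 for Nr3c2.

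Scnn1b encodes the beta subunit, which with gamma is needed for full channel activity at the cell surface. Its probe A_51_P412348 (chr7:121709218-121709277, mm8) stood at -0.03, -0.23 and -0.76 in the ligated kidneys of mice 495, 485 and 512, against 0.70, 0.40 and 0.40 in their contralateral kidneys. The groups did not overlap, and the contralateral kidneys lay closer together than the ligated ones. The mean was -0.34 ± 0.37 in ligated and 0.50 ± 0.17 in contralateral kidneys (SD, n = 3 each). Scnn1b therefore fell by 0.84 ± 0.18, a 1.79-fold lower signal, with adjusted p = 0.0387 and a 95% interval of -1.32 to -0.35.

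The gamma subunit gene Scnn1g, whose product carries the sites cut by channel-activating proteases, had the probe A_51_P245558 (chr7:121559068-121559127, mm8). It was at 0.53, 0.74 and -0.26 in ligated kidneys, against 1.74, 1.31 and 1.57 in contralateral kidneys. The ligated kidney of mouse 512 was the lowest of all 6, and the groups did not overlap. Scnn1g fell by 1.20 ± 0.29, or 2.30-fold, with adjusted p = 0.0476 and a 95% interval of -2.00 to -0.40. Within mice the difference ranged from -0.56 in mouse 485 to -1.83 in mouse 512.

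Scnn1a encodes the alpha subunit, without which the channel does not form. Its brighter probe A_51_P213691 (chr6:125310444-125310503, mm8) was at 1.96, 1.34 and 1.72 in ligated kidneys, against 3.66, 2.73 and 2.18 in contralateral kidneys. Again no ligated kidney reached a contralateral one, but the contralateral kidneys were spread widely, with mouse 512 lowest. The difference was -1.18 ± 0.29, close in size to that of Scnn1g, with adjusted p = 0.0502, just over the threshold, and a 95% interval of -2.00 to -0.37. The second probe, A_52_P139395, which crosses an intron, was at -4.00, -4.16 and -4.41 in ligated and -2.07, -3.18 and -3.59 in contralateral kidneys. That probe differed by -1.24 ± 0.28. When each probe was tested on its own over 29093 probes, of which 30.2% were called, both Scnn1a probes were called, with adjusted p = 0.0490 for the first and 0.0413 for the second. So the 2 probes gave a similar size of difference, although the second was dim, with a ligated mean of -4.19. Whether Scnn1a is called depended on testing by gene or by probe.

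Hsd11b2, which encodes 11-beta-hydroxysteroid dehydrogenase type 2, had the largest change of the 7 genes, although the difference of Scnn1a was larger without mouse 512 and that of Scnn1g without mouse 485. Its probe was at -1.60, -1.93 and -2.87 in ligated kidneys, against -0.45, -0.74 and -0.99 in contralateral kidneys. In both groups mouse 495 was highest and mouse 512 lowest, and every contralateral kidney was above every ligated one. Hsd11b2 fell by 1.41 ± 0.21, or 2.65-fold on this scale, with adjusted p = 0.0283 and a 95% interval of -2.00 to -0.82.

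The receptor gene Nr3c2 was not called, and its probes went different ways. The brightest, A_52_P378137, was at -3.84, -4.00 and -3.71 in ligated and -3.19, -3.34 and -3.75 in contralateral kidneys, a difference of -0.42 ± 0.21 with adjusted p = 0.179 and a 95% interval of -1.005 to 0.16. Its ligated kidney was lower in mice 495 and 485 and 0.04 higher in mouse 512. Probe A_51_P377914 was at -4.03, -4.71 and -4.84 in ligated and -4.62, -5.22 and -5.29 in contralateral kidneys, higher on the ligated side in all 3 mice. That difference was 0.51 ± 0.14, with adjusted p = 0.0559 over all probes. The third probe, A_52_P264543, was above background on 1 ligated and 1 contralateral array and was not tested. All 3 probes were dim, and no direction for Nr3c2 can be given from them.

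Sgk1 had the probe A_51_P118237 (chr10:21689000-21689059, mm8), at 2.20, 3.29 and 2.05 in ligated kidneys against 3.35, 3.58 and 2.43 in contralateral kidneys. Mouse 485 was high and mouse 512 low on both sides, and the groups overlapped. The difference of -0.60 ± 0.23 was not called (adjusted p = 0.113, 95% interval -1.25 to 0.04). Mouse 495 differed by -1.15 and the other mice by -0.29 and -0.38. The mean difference was -0.15 with quantile normalization and -0.27 with spike-in scaling. A second probe filed under the same name, A_52_P352246, lies 100840 bases away and was not above background on any array.

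Nedd4l, the ligase that takes the channel off the membrane, was at -0.50, -0.29 and -0.65 in ligated kidneys against -0.08, 0.31 and 0.14 in contralateral kidneys on its brighter probe, A_51_P305936 (chr18:65329291-65331033, mm8). The groups did not overlap and the spread in each was small. The difference of -0.60 ± 0.16 was not called, with adjusted p = 0.0530 and a 95% interval of -1.03 to -0.17. The other probe, A_52_P544878, differed by -0.38 ± 0.18 (adjusted p = 0.166 over all probes). Over the 12 probes of the 7 genes, 10 were bright enough to test, 9 of these had a mean difference below 0 and 1 above, and 5 were called.

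**Figure D2:**
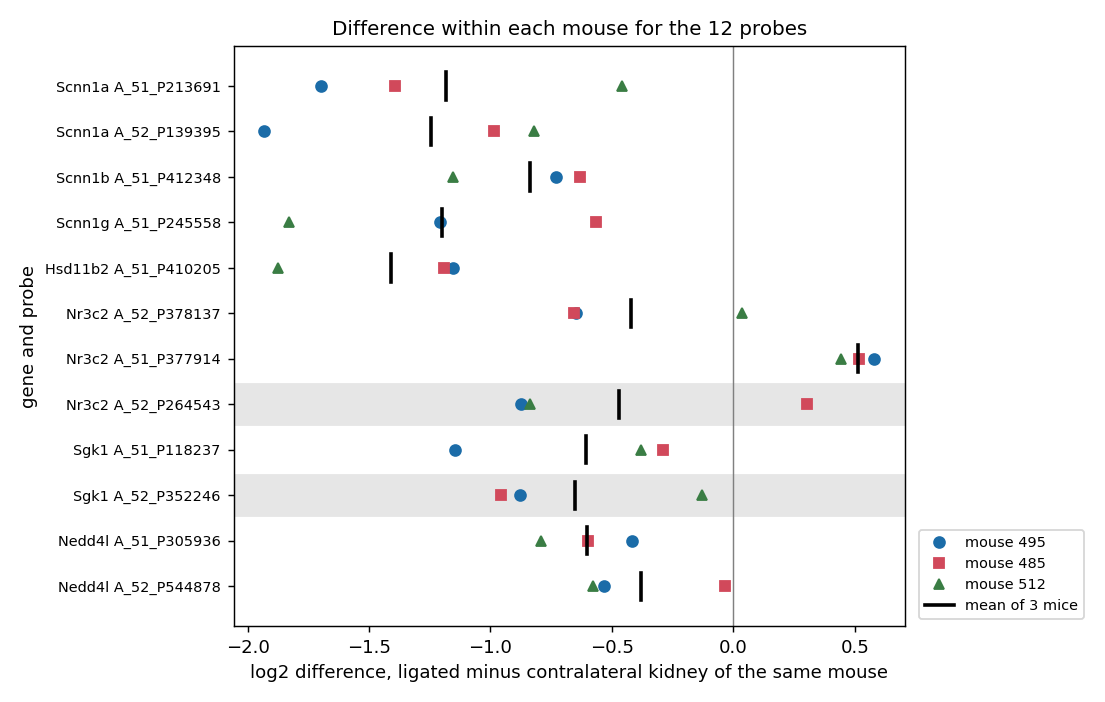
Difference of each of the 12 probes within each mouse (x axis, log2, ligated minus contralateral), with 1 row per probe and a bar at the mean of 3 mice. The 2 shaded probes were not bright enough to test; Nr3c2 A_51_P377914 is the row that lies above 0 in all 3 mice.

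Mouse 512 differed from the other mice in opposite ways for different genes. Its differences were the most negative of the 3 mice for Scnn1b (-1.15), Scnn1g (-1.83), Hsd11b2 (-1.88) and Nedd4l (-0.79), and nearest to 0 or above it for Scnn1a (-0.46) and Nr3c2 (0.04). These values are also those of the second slide, since it held mouse 512 alone. On the first slide, mice 495 and 485 averaged -1.55 for Scnn1a, -0.68 for Scnn1b, -0.89 for Scnn1g, -1.17 for Hsd11b2, -0.65 for Nr3c2, -0.72 for Sgk1 and -0.51 for Nedd4l. Without mouse 512, limma called 5 of the 7 genes, all lower, where 28.2% of all genes were called lower. Scnn1a then had adjusted p = 0.00608 and Nr3c2 0.0268, on ranges of 0.00608 to 0.230 and 0.0219 to 0.901 over the 15 alternative settings. Leaving out only the contralateral kidney of mouse 512, in a fit without pairing chosen after seeing the data, called 6 of the 7, all but Sgk1, where 30.5% of all genes were called lower. Without mouse 495 or without mouse 485 no gene on the array was called by limma, although 4985 and 5017 genes had an unadjusted p under 0.05, so neither of those fits separates the 7 genes from the rest.

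The scaling also set how many of the 7 were called. Centring each array on its median moved the median difference of all genes to -0.32, and 6 of the 7 were called lower, where 30.3% of all genes were. Scaling to the spiked-in control RNA moved it to 0.32, none of the 7 was called by limma, none had an unadjusted p under 0.05, and 3.34% of all genes were called lower. Under that scaling the mean differences of all 7 genes remained below 0, from -0.09 for Nr3c2 to -1.07 for Hsd11b2. Single mice turned sign, however: mouse 485 had 0.15 for Scnn1b, 0.22 for Scnn1g, 0.50 for Sgk1 and 0.13 for Nr3c2, and Nedd4l was 0.18 and 0.19 in mice 495 and 485. The falls of Scnn1b and Scnn1g are thus measured relative to the bulk of the genes on each array. Before any scaling, Scnn1g had the higher signal in the ligated kidney of mouse 485 (2395 against 1659), as did Sgk1 (14034 against 8024). The brighter Nedd4l probe did in mice 495 (965 against 701) and 485 (1173 against 832). Hsd11b2 and the brighter Scnn1a probe were lower in the ligated kidney of every mouse before scaling.

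**Figure D3:**
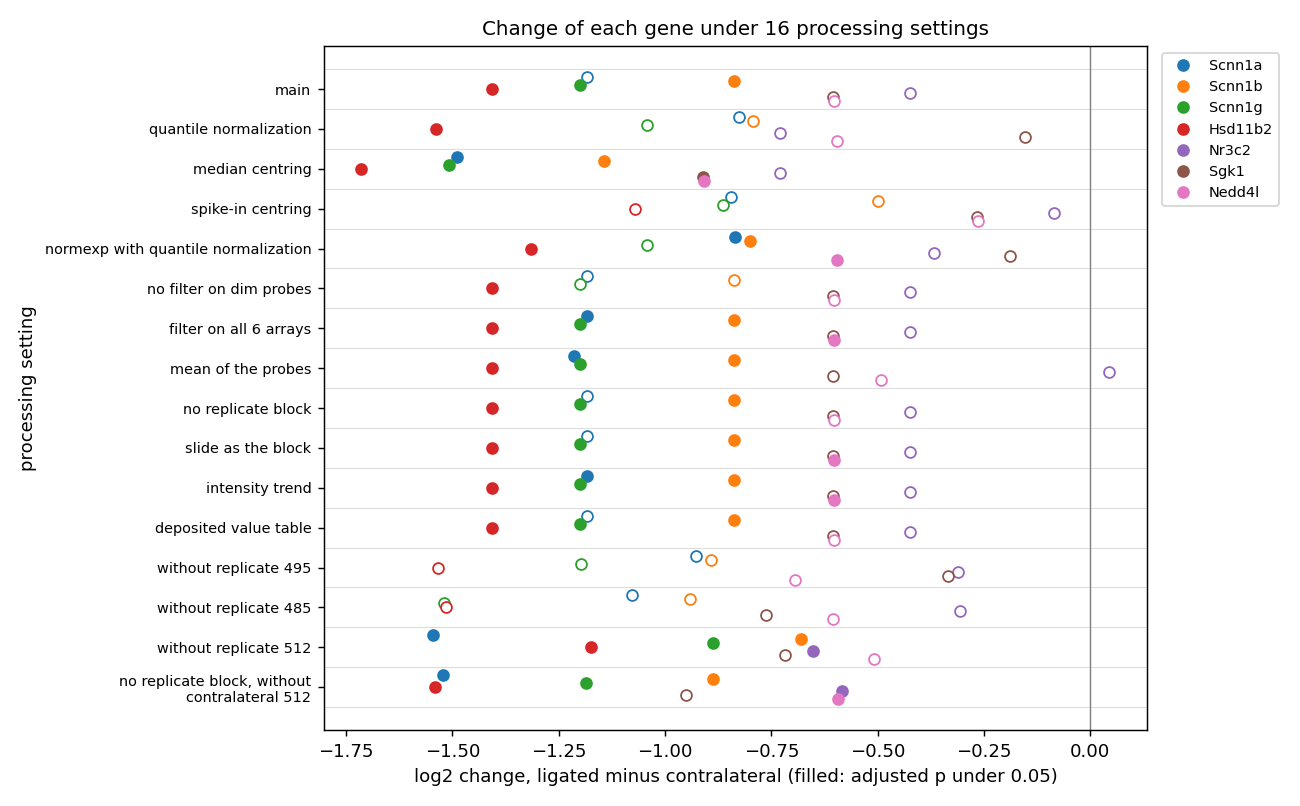
Log2 difference of each gene (x axis, ligated minus contralateral) under the main setting and 15 alternatives (rows), filled where the adjusted p was under 0.05. Hsd11b2 is filled in 13 of the 16 settings, Sgk1 in 1, and Nr3c2 with the mean of its probes is the single point above 0.

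The 4 lists of other genes of the pathway, chosen with earlier results of these data known, put the 7 genes in context. Beside their counts, 16% of all genes tested were called higher and 14.7% lower. Mineralocorticoid and glucocorticoid receptor partners had 0 of 12 tested genes called higher and 1 lower, with a median difference of -0.46. The one that fell was Hsp90aa1, a chaperone that holds steroid receptors ready to bind hormone, by 0.66 ± 0.14 (adjusted p = 0.0385). It was at 4.94, 5.13 and 4.71 in ligated and 5.57, 5.87 and 5.31 in contralateral kidneys, without overlap. Nr3c1, the glucocorticoid receptor, differed by -0.26 ± 0.16 and was not called (adjusted p = 0.251). Without mouse 512, 6 genes of this list were called lower, where 28.2% of all genes were. With median centring 7 were called lower, where 30.3% of all genes were. The medians of this list, of the corticosteroid targets and of the Sgk1 and Nedd4l partners were nearer 0 under other scalings, at -0.06, -0.17 and -0.15 with quantile normalization and -0.12, -0.07 and -0.12 with spike-in scaling.

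Of 16 corticosteroid target genes tested, 1 was called higher and 3 lower, with a median of -0.41. Over all genes the shares were 16% higher and 14.7% lower. Usp2, a deubiquitinase with an aldosterone-induced form that acts on the channel, fell by 1.89 ± 0.43 (adjusted p = 0.0440). It was at -0.11, 0.05 and -0.99 in ligated and 2.34, 2.55 and -0.27 in contralateral kidneys, so the contralateral kidney of mouse 512 was below 2 of the ligated ones. Atp1b1, a beta subunit of the sodium pump, fell by 1.07 ± 0.22 (adjusted p = 0.0387). The hormone-responsive transcription factor Klf9 fell by 1.04 ± 0.19 (adjusted p = 0.0325). Tsc22d3, Per1, Dusp1 and Fkbp5, often used as readouts of glucocorticoid action, were not called. Their differences were -0.03 ± 0.46, 0.00 ± 0.16, -0.27 ± 0.17 and -0.83 ± 0.40. The mice disagreed in direction for Tsc22d3 (-0.74, -0.57 and 1.21 in mice 495, 485 and 512) and Fkbp5 (-1.62, -1.05 and 0.18). They also did for Per1 (0.01, -0.20 and 0.20). Tsc22d3, Per1, Dusp1 and Fkbp5 were singled out after their values were seen and do not stand for the list. In the same list Klf9 was called lower, as given above. Ndrg2 differed by -1.80 ± 0.50, lower in the ligated kidney of every mouse, and was not called (adjusted p = 0.0603). Edn1, which encodes endothelin-1, an inhibitor of the channel that aldosterone induces in the collecting duct, had the widest difference of the list. It was at 0.97, 1.82 and 1.31 in ligated and -3.58, -4.13 and 0.66 in contralateral kidneys, and its difference of 3.72 ± 1.12 was not called (adjusted p = 0.0706). Without mouse 512, 4 genes of this list were called higher and 8 lower. In that fit 5413 of 20224 genes were called higher and 28.2% lower.

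Among 22 partners of Sgk1 and Nedd4l, 0 were called higher and 4 lower, with a median of -0.46. The shares over all genes were 16% higher and 14.7% lower. Sgk2, a kinase related to Sgk1, was at 1.95, 2.25 and 1.59 in ligated and 4.88, 4.83 and 3.13 in contralateral kidneys and fell by 2.35 ± 0.32 (adjusted p = 0.0262). Sgk3, the third kinase of that family, differed by -0.10 ± 0.15 and was not called. Mtor, the kinase of the complex that activates Sgk1, fell by 1.76 ± 0.18 (adjusted p = 0.0221), while its partner in that complex, Rictor, differed by 0.33 ± 0.14 (adjusted p = 0.129). Wnk4, a kinase that restrains distal sodium transport in some states, fell by 1.35 ± 0.30 (adjusted p = 0.0423), and Ndfip2, an adaptor that activates Nedd4-type ligases, fell by 1.07 ± 0.15 (adjusted p = 0.0272). Nedd4, the closest relative of Nedd4l, was higher in the ligated kidney of all 3 mice, by 0.71 ± 0.18, and was not called (adjusted p = 0.0529). Without mouse 512, 1 gene of this list was called higher and 11 lower, where 28.2% of all genes were called lower.

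Channel proteases and their inhibitors moved in both directions. Of 12 tested, 2 were called higher and 3 lower, where 16% and 14.7% of all genes were. Their median was -0.25. It turned to 0.23 with quantile normalization, 0.19 with normexp background correction and quantile normalization together and 0.08 with spike-in scaling. Prss8 encodes prostasin, a membrane-anchored protease that acts in cutting the gamma subunit. It was at 2.72, 2.69 and 2.09 in ligated and 4.24, 4.55 and 3.43 in contralateral kidneys and fell by 1.57 ± 0.17 (adjusted p = 0.0231). Serpine2, a serpin that inhibits prostasin, was at 0.80, 1.02 and 1.92 in ligated and -0.97, -1.39 and -0.90 in contralateral kidneys and rose by 2.34 ± 0.25 (adjusted p = 0.0228). The protease Prss8 was thus lower and its inhibitor Serpine2 higher in the ligated kidney of every mouse. Spint1 and Spint2, other inhibitors of the list, were not called. They differed by -0.21 ± 0.15 (adjusted p = 0.310) and 0.09 ± 0.14 (adjusted p = 0.637). With spike-in scaling 1 gene of this list was called higher and 0 lower, where 3.34% of all genes were called lower. The serine protease Tmprss2 fell by 1.02 ± 0.14 (adjusted p = 0.0267) and Furin, the convertase that cuts the alpha and gamma subunits inside the cell, fell by 0.83 ± 0.18 (adjusted p = 0.0412). St14, which encodes the membrane protease matriptase, rose by 0.79 ± 0.17 (adjusted p = 0.0389).

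**Figure D4:**
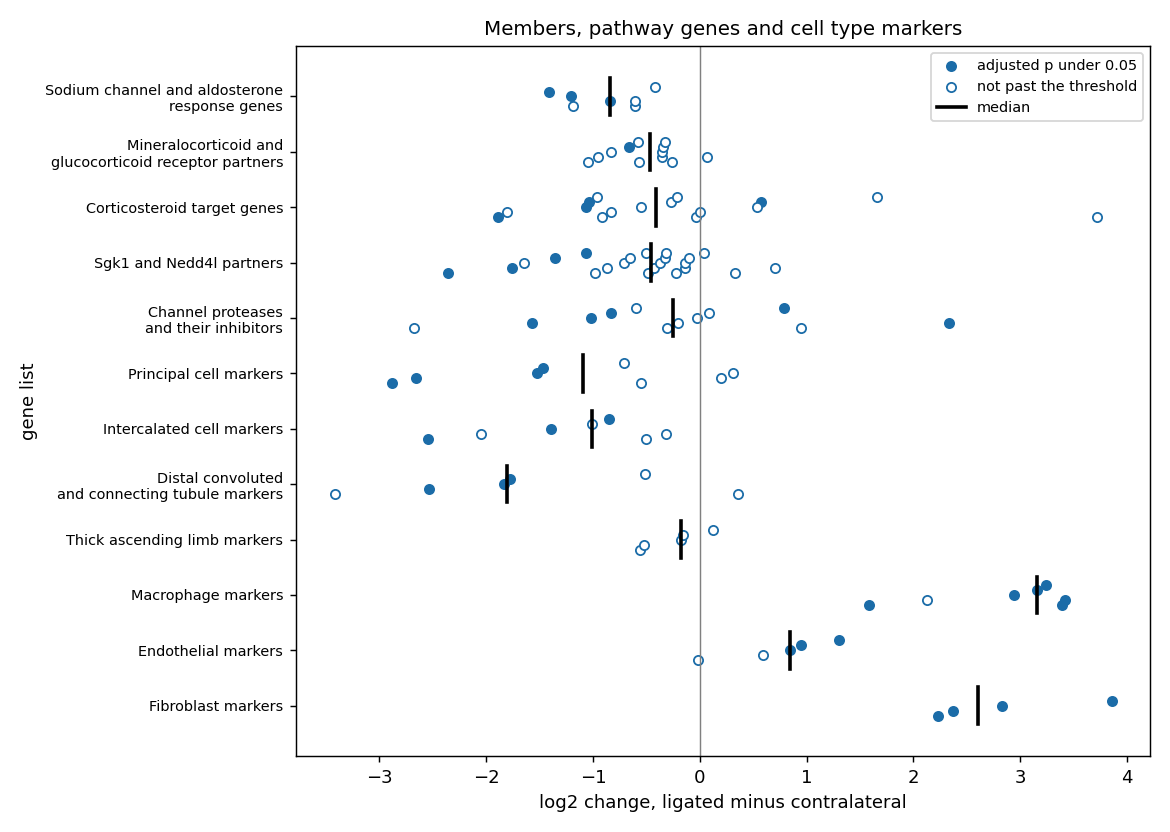
Log2 difference (x axis, ligated minus contralateral) of each tested gene of the 7 members, of 4 pathway lists and of 7 marker lists, with bars at the medians. Filled points passed the test. The distal markers lie mostly below 0 and the macrophage and fibroblast markers above 0. The median of the proteases changes sign under 3 other settings, and that of the thick ascending limb under spike-in scaling and without mouse 485.

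Markers of the cells that carry the channel were examined beside these genes. For all marker lists, the shares over all genes tested were 14.7% called lower and 16% higher. Of 8 principal cell markers, 4 fell and 0 rose, with a median of -1.09, and their summed level was 7.75 to 14.0 in ligated against 27.6 to 33.1 in contralateral kidneys. Aqp2, the vasopressin-regulated water channel, fell by 2.88 ± 0.15 (adjusted p = 0.0221), the basolateral water channel Aqp3 by 2.66 ± 0.35 (adjusted p = 0.0250) and the vasopressin receptor Avpr2 by 1.53 ± 0.25 (adjusted p = 0.0296). Kcne1 was the other that fell. The other principal cell markers were not called, and Gata3, a transcription factor of the collecting duct, differed by 0.20 ± 0.31 (adjusted p = 0.622). In the contralateral kidneys of mice 495, 485 and 512, Aqp2 was at 2.93, 2.96 and 1.90 and Aqp3 at 3.60, 4.04 and 1.78. Fxyd4, another marker of this list, was at 3.17, 2.61 and 4.14 there. The contralateral sums were thus similar although single markers differed between these kidneys in opposite ways.

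Of 7 intercalated cell markers 3 fell (Slc26a4, Atp6v1g3 and Slc4a9), with a summed level of 4.33 to 6.29 in ligated and 10.7 to 27.9 in contralateral kidneys. Of 6 distal convoluted and connecting tubule markers 3 fell (Kl, Slc12a3 and Slc8a1), at 7.70 to 10.7 in ligated and 15.3 to 121 in contralateral kidneys. Their medians were -1.005 and -1.81. Without mouse 512, 5 intercalated cell markers were called lower, where 28.2% of all genes were. Of the distal markers, 6 were then called lower and 1 higher of 7, since Pvalb passed the filter on dim probes in that fit. Over all genes 5413 of 20224 were called higher there. None of 5 thick ascending limb markers was called (3 fell without mouse 512), and the summed level there overlapped, at 104 to 149 in ligated and 87.9 to 224 in contralateral kidneys. Ptger3, the one of these with the smallest p, differed by -0.52 ± 0.32 (adjusted p = 0.259).

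Markers of other cells moved the other way. Of 7 macrophage markers 6 rose, with a median of 3.15 and a summed level of 207 to 240 in ligated against 17.2 to 88.1 in contralateral kidneys, led by Adgre1 (3.42 ± 0.48), C1qa (3.40 ± 0.33) and Lyz2 (3.24 ± 0.38). All 4 fibroblast markers rose, with a median of 2.60 and a summed level of 40.8 to 89.6 against 3.51 to 21.5, led by Col1a1 (3.86 ± 0.91), Pdgfra (2.83 ± 0.27) and Dcn (2.37 ± 0.21). Of 5 endothelial markers, Cdh5, Pecam1 and Emcn rose, with a median of 0.84 over the list and a summed level of 10.3 to 12.7 against 6.41 to 9.40. The part of these shifts in the lower signal of the sodium channel genes was not tested.

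The level of each of the 7 genes across the 6 kidneys was also compared with that of 14011 other genes, by the root mean square difference of log2 values after each gene was centred on its own mean. A smaller value means a closer pattern, and genes that vary little have small values with many others. Closest to Scnn1a were Lmod3 (0.152), Sult1c2 (0.155) and Slc5a9 (0.165). Scnn1b was closest to Arfgef2 (0.100), Agfg2 (0.103) and Anks4b (0.105), and Scnn1g to Slc13a1 (0.177), Aqp7 (0.195) and Avpr2 (0.204). For Hsd11b2 the closest were Guca2b (0.136), Aqp7 (0.170) and Dleu7 (0.195). Aqp7 thus stood among the 3 closest genes of both Scnn1g and Hsd11b2. Nr3c2 was closest to Ldhb (0.0551), Zcchc17 (0.0569) and Ptgdr2 (0.0582), Sgk1 to Abcc10 (0.102), Adrb1 (0.144) and Hoxc5 (0.164), and Nedd4l to Tmem170 (0.0444), Rsc1a1 (0.0749) and Mark3 (0.0765). Among the 21 pairs of the 7 genes themselves, Scnn1b and Scnn1g were closest (0.247), followed by Scnn1g and Hsd11b2 (0.251), and Scnn1a and Sgk1 were farthest apart (0.710).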

How the data were processed

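Total RNA of each sample was labelled with Cy3 and hybridised to a 1-colour Agilent mouse array (design 014868), per the labels and file headers. Whether it came from whole kidney or from primary cells is not settled by the labels. The authors deposited scanner tables of spot intensity (version 10.5.1.1 of Feature Extraction per the file headers, 9.1 per the submitters' processing notes); the processed signal used is already background-corrected. They also deposited a value table, which is that signal as a ratio to each array's median. Control spots and flagged outliers were removed, spots of a probe averaged, log2 values taken after subtracting the log2 of the array's 75th percentile, and 24 probes with a flagged array left out. A probe counted as above background on an array if at least 0.5 of its spots did. Each gene was represented by its probe of highest mean. Of 41174 probes 24375 were named by accession through RefSeq (GRCm38.p6); 16799 kept the file's name, 6302 of them current.

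Differences were tested with limma 3.58.1 (R 4.3.3), with mouse as a block and 2 residual degrees of freedom, on 19598 genes. The code was run on simulated data in which few genes changed, each by more than any of the 7 genes did. That run checks the code and not calls of the size seen here. Kidneys were paired by the mouse number that the labels give. Deviations of the 2 kidneys of a mouse from their group means correlated at 0.19, 0.48 and 0.27 over genes, and at most 0.02 between mice. Each group was centred on its own mean, so values above 0 within mice tend to push those between mice below 0. This contrast is thus partly built in and does not test the pairing. The genes named are all 7 genes, the 3 called genes with the largest change in each list (with none called, that with the smallest p), and the 3 genes closest to each of the 7; other genes were named after their values were seen. The 7 genes and the lists were chosen with earlier results of these data known. Fkbp5 and Fxyd4 are in 2 lists each. Zbtb16, Tmprss3 and Pvalb were listed but not tested, and 1 call among the corticosteroid targets is not reported here. Alternatives were 15 in number, 14 planned. With 3 mice, the number of arrays limits the precision.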

Additional observations from a re-analysis of the deposited data

How the results depend on the processing

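Under 15 alternatives the differences of the 7 genes stayed below 0, except that the mean of the probes gave 0.045 for Nr3c2, whose probes disagree. The main analysis called 6019 genes and 3 of the 7. Spike-in scaling called 3042 and 0, no filter on dim probes 2662 and 1, and leaving out contralateral kidney 512 without pairing (added after seeing the data) 11183 and 6. Quantile normalization called 5200 and 1, median centring 8499 and 6, the filter on all 6 arrays 5801 and 5, and an intensity trend 6856 and 5. Of all calls 52.1% were higher, 30.1% with median centring, 78.5% with spike-in scaling and 66.1% with no filter. Calls were lost for Scnn1b with quantile normalization (-0.79), spike-in scaling (-0.50) and no filter (-0.84), for Scnn1g with these (-1.04, -0.86 and -1.20) and normexp, which was run with quantile normalization (-1.04), and for Hsd11b2 with spike-in scaling (-1.07). Calls were gained for Scnn1a with median centring (-1.49), normexp (-0.84), the filter on all 6 arrays and the intensity trend (both -1.18), the mean of its probes (-1.21) and without contralateral kidney 512 (-1.52). They were gained for Nedd4l with median centring (-0.91), normexp (-0.59), the filter on all 6 arrays, the slide as a block and the intensity trend (all -0.60) and without that kidney (-0.59), for Sgk1 with median centring (-0.91) and for Nr3c2 without that kidney (-0.58). The cause of these shifts was not tested. Leaving out 1 mouse gave 0 to 11119 calls over all genes, 0 to 5 of the 7, and differences of -1.55 to -0.93 for Scnn1a, -0.94 to -0.68 for Scnn1b, -1.52 to -0.89 for Scnn1g, -1.53 to -1.17 for Hsd11b2, -0.65 to -0.31 for Nr3c2, -0.76 to -0.33 for Sgk1 and -0.70 to -0.51 for Nedd4l. The fit with no replicate block gave the same differences (-1.18 for Scnn1a) and called 5538 genes and 3 of the 7, so pairing by mouse changed no call among them. Of 165 list medians 160 kept their sign, but 79 of 330 list counts moved by over 1.5 times. All 3 Nr3c2 probes were dim.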
